A study of Mus musculus with 8 samples.

Results

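The comparison of fibroblast growth factor-2 (FGF2) with its vehicle is described here across all genes measured. It holds the 2 arrays labelled FGF2 and the 2 labelled vehicle control, so 4 of the 8 arrays in the series, and all probe sets on them. The study measured total RNA of mouse brain, with cerebral cortex as the source, on Affymetrix 430 2.0 arrays with 45101 probe sets each. The samples form 4 groups of 2 replicates. The vehicle group received no growth factor and no inhibitor by its label, and the FGF2 group received the growth factor alone. The other 4 arrays had FGF2 with either U0126, an inhibitor of the MEK kinases, or SB202190, an inhibitor of p38 kinases. Their response to the inhibitors is not described here, but they take part in the processing that all 8 arrays share. This covers the constant added before taking logs, the normalization, and the choice of the probe sets and genes tested. They also enter the estimate of the spread between replicates and a comparison of control signals. The title of the study names an astroglial response, but the dose, the time of exposure, the strain and age of the mice, and whether the cells were cultured are not stated in the labels. The labels do not tie the replicates to different cultures or mice, and the p-values therefore rest only on how far these arrays differ, which may be technical spread.

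FGF2 is a secreted protein that binds FGF receptors together with heparan sulfate. The receptors are tyrosine kinases that signal through the adaptor FRS2 to RAS, RAF, MEK and ERK, and through GAB1 to PI3 kinase. ERK phosphorylates ETS transcription factors and stabilises AP-1 subunits, and the pathway switches on its own inhibitors, the Sprouty and Spred proteins and the dual-specificity phosphatases. FGF2 is a known mitogen for astrocytes and neural progenitors. Astrocytes take up glutamate and potassium, store glycogen, couple through gap junctions and line blood vessels with the water channel AQP4.

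Values are deposited intensities on a linear scale, given for replicate 1 and then replicate 2 of a group. A log2 change is the difference FGF2 minus vehicle of log2(intensity + 1.77) after quantile normalization, with its SE from limma, and n = 2 arrays a group throughout. A gene was called where limma's p, adjusted by Benjamini and Hochberg over the 13174 genes tested, lay under 0.05, and "rose" and "fell" are used of called genes alone. At this threshold 4991 genes were called, 37.9% of those tested, with 2489 higher (18.9%) and 2502 lower (19%). At least 2-fold changes were found in 432 higher genes (3.28%) and 570 lower genes (4.33%), and at least 4-fold changes in 75 and 69. The share called grew with signal, from 11.2% in the lowest of 5 equal bins of mean level to 59.5% in the highest, and the smallest change called was 0.12. Without any test, 31.8% of genes had both FGF2 arrays above both vehicle arrays and 37.3% had both below. Of the 4991 called genes 4960 had no overlap between the groups. Statements below that called genes do not overlap therefore describe their values and add no support to a call. The split of calls depends on the centring. With a centring of every array on its median over all probe sets, which moves the median change of the genes tested from -0.0039 to 0.16, 4016 genes were called higher and 1482 lower. Lists below whose median lies within about 0.16 of 0 have no settled direction. Counts of a list under this centring, called recentred, follow in brackets where the balance of the list depends on it. Every count of called list members is to be read beside the shares of all genes tested, 18.9% higher and 19% lower.

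**Figure D1:**
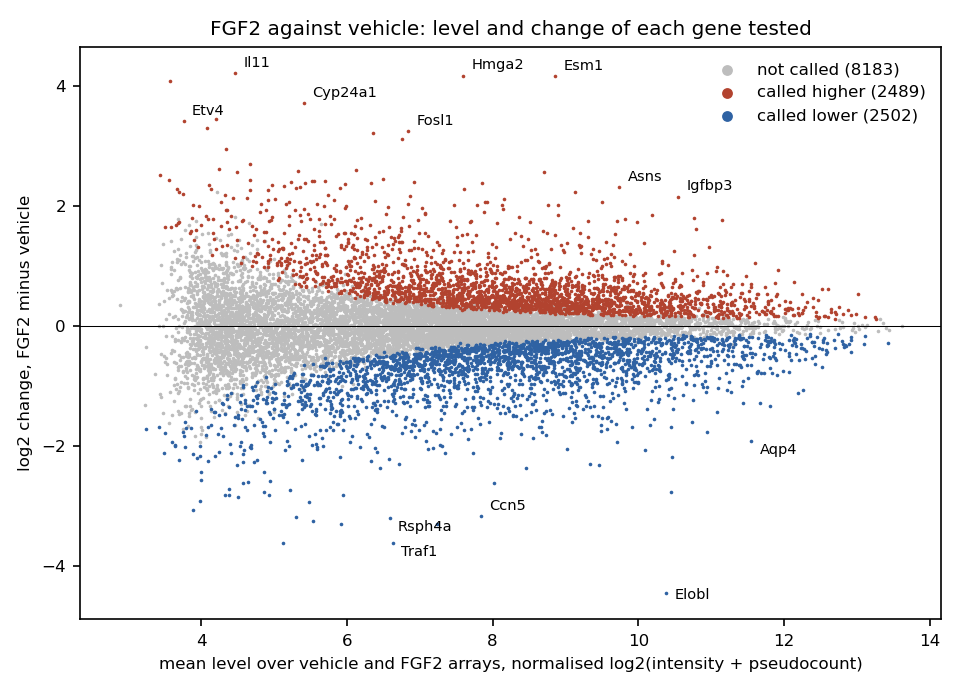
Each point is 1 of the 13174 genes tested, with the mean level over the vehicle and FGF2 arrays on the x axis (normalised log2 of intensity plus pseudocount) and the log2 change FGF2 minus vehicle on the y axis. Called genes are red (2489 higher) or blue (2502 lower), grey genes were not called, and calls reach smaller changes at high levels.

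Replicates correlated with r of 0.981 (vehicle) and 0.983 (FGF2) over the genes tested, against 0.947 to 0.949 between arrays of the 2 groups. The median absolute difference between replicates was 0.139 with vehicle and 0.126 with FGF2 on the log2 scale. The median signal was 27.8 and 26.6 on the vehicle arrays and 23.7 and 23.3 on the FGF2 arrays. The ratios of 3' to 5' control probe sets for Gapdh, a sign of RNA quality, were 0.719 and 0.720 with vehicle and 0.777 and 0.758 with FGF2, and those for Actb 1.31 and 1.40 against 1.35 and 1.38, where the groups overlapped. Replicate 2 of FGF2 stood apart in a spiked hybridization control, cre, at 14459 against 11234 to 11852 on the other 7 arrays. Without this array 3844 genes were called, and without replicate 1 of FGF2 3906.

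The labelled source was checked against cell type markers, which were chosen with earlier results of these data known. Astrocyte markers had the highest levels of the 9 cell type lists, with a median percentile of 96.6 among all probe sets on the vehicle arrays. Fibroblast and pericyte markers lay at 94.3, cilium genes of ependymal cells at 80.2 and oligodendrocyte precursor markers at 66.5. Choroid plexus markers lay at 65.3, where Ttr, the transthyretin of that tissue, had 2533 and 2620.4 with vehicle against 2888 and 2041 with FGF2. Neuronal markers had a median percentile of 40.8 and only 7 of 15 were above the filter on low values, microglial markers 38.1, oligodendrocyte markers 34.8 and endothelial markers 31.5. Snap25, Gad2 and Slc17a7, defining genes of cortical neurons, Itgam, Ptprc and Trem2 of microglia, and Mog and Mag of myelin were all below the filter. Other members of the same lists had high signals. Among neuronal markers Stmn2 had 1534 and 1557 with vehicle against 1702 and 1799.8 with FGF2 and Map2 583 and 565 with vehicle against 473 and 466 with FGF2, among oligodendrocyte markers Cnp had 2397 and 2483 with vehicle against 2011 and 2164 with FGF2, and among microglial markers Lyz2 had 328 and 460.0 with vehicle against 249.4 and 237 with FGF2 and Cd68 113 and 152 with vehicle against 134 and 149.7 with FGF2. The members named here, low and high, were singled out after their values were seen. No marker was listed at exactly 0.

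The summed signal of 16 astrocyte markers was 33243 and 32835 on the vehicle arrays and 20538 and 20815 on the FGF2 arrays. That of 16 fibroblast and pericyte markers was 19055 and 18389 against 10204 and 10932, and that of 20 cilium genes 6060.0 and 6207 against 2602 and 2458. These sums include members below the filter. Oligodendrocyte precursor markers went the other way, at 2106 and 2096 against 3515 and 3583, a sum that is mostly Olig1. Neuronal markers summed to 2396 and 2371 against 2487 and 2559.8, and microglial markers to 734 and 979 against 681 and 655. The choroid plexus sums, 3614 and 3735 against 3467 and 2600.1, differed as much between the FGF2 replicates as between the groups. In these bulk samples fewer cells of a type and less RNA per cell cannot be told apart. The part of a change in cell makeup in the results that follow was not tested.

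The 15 genes with the highest and the 15 with the lowest change are taken from called genes that met 2 conditions. Their mean intensity was at least 50 in the higher group, and their FGF2 and vehicle arrays did not overlap. Il11, a cytokine of the IL-6 family, had intensities of 1.59 and 7.90 with vehicle against 85.2 and 101 with FGF2, a log2 change of 4.22 ± 0.41. The vehicle values are near the pseudocount, so the size of that change depends on it, but both FGF2 arrays were far above both vehicle arrays. Hmga2, an architectural chromatin protein of embryonic and proliferating cells, had 54.9 and 40.3 with vehicle against 820.1 and 830.5 with FGF2. Its probe set can bind several transcripts, and 2 further Hmga2 probe sets gave log2 changes of 4.96 and 5.49, beside 4.18 for this one. Esm1, an endothelial proteoglycan also known as endocan, had 104 and 117 with vehicle against 2027 and 1975 with FGF2, a change of 4.17 ± 0.11. Cyp24a1, the enzyme that degrades active vitamin D, had 7.05 and 18.1 with vehicle against 155 and 148 with FGF2. Fosl1, the AP-1 subunit FRA1, had 39.5 and 37.9 with vehicle against 358 and 347 with FGF2, and Serpinb2, an inhibitor of plasminogen activators, had 25.3 and 31.5 with vehicle against 254 and 239 with FGF2. Ifi209, a member of the interferon-inducible p200 family, rose from 32.8 and 44.4 with vehicle to 319 and 313 with FGF2, although the interferon-stimulated genes described below were lower. The other genes among the 15 highest were Tmem171, the secreted peptide gene Tafa2, the DNA repair dioxygenase Alkbh2, the reductase Cyb5r2, the phosphatase Dusp4, the mitotic helicase Ercc6l, the exocytosis GTPase Rab3b and the cytokine Clcf1, with log2 changes from 3.46 to 2.57.

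The lowest change was that of Elobl, a gene named for its likeness to elongin B, with 5348 and 6100.5 with vehicle against 300.1 and 267 with FGF2, a log2 change of -4.45 ± 0.08. Traf1, an adaptor of TNF receptors, had 347 and 343 with vehicle against 29.7 and 22.1 with FGF2, and its other probe set gave -3.53 beside -3.62. Bbox1, the last enzyme of carnitine synthesis, had 123 and 123 with vehicle against 10.04 and 6.55 with FGF2. The connexin Gjb2 had 161 and 128 with vehicle against 15.3 and 10.8 with FGF2 and the radial spoke protein of cilia Rsph4a 288 and 291 with vehicle against 34.3 and 24.4 with FGF2. Ccn5, a matricellular protein of the CCN family, had 634 and 706 with vehicle against 79.5 and 66.9 with FGF2, a change of -3.17 ± 0.14. That the groups do not overlap was a condition of the choice. In these 6 genes they also lay further apart than the replicates of a group differed. The histone gene H2bc22 was also among the 15 lowest, but its vehicle arrays, 981 and 219, differed more from each other than the lower one did from FGF2, 20.4 and 98.6. Its change was -3.29, ranged from -4.40 to -2.21 with an array left out, and lost its call with a variance prior that was robust or had no trend. Zfp185, an actin-associated LIM protein, the defensin Defb1, the protease Adamts20, the reductase Sdr42e1, the stress factor Atf3, the connexin Gjb6, the microtubule protein Togaram2 and the transcript 2210409E12Rik made up the rest, between -3.30 and -2.81.

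**Figure D2:**
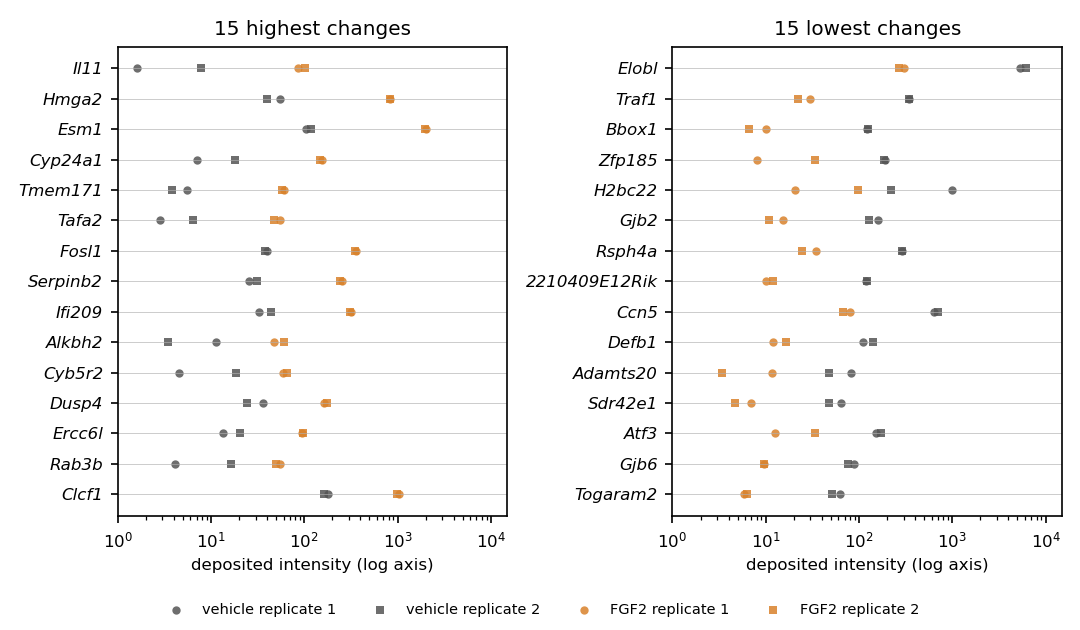
Deposited intensity on a log axis for the 15 called genes with the highest log2 change (left) and the 15 with the lowest (right). They were chosen among genes with a mean of at least 50 in the higher group and no overlap between the groups. Grey marks are the 2 vehicle arrays, orange marks the 2 FGF2 arrays. Il11 lies at 1.59 and 7.90 with vehicle and at 85.2 and 100.9 with FGF2, and the 2 vehicle values of H2bc22 lie apart, at 981 and 219.

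Promoters were searched for the element that AP-1, a factor downstream of ERK, binds. RefSeq promoters of GRCm38.p6, from 250 bases before to 50 after a start site, were available for 10616 of the genes tested. The letters TGACTCA, on either strand, stood in 4.71% of these, in 4.90% of genes called higher and 5.39% of genes called lower. Among genes that rose at least 4-fold 7 of 51 (13.7%) held the element, Il11, Plaur and the IL-6 family cytokine Lif among them, and 2 of 54 (3.70%) of those that fell at least 4-fold. In the lists described below, 6 of 25 interferon-stimulated promoters (24.0%) held it, and 0 of 18 of the ERK inhibitors. The share was 8.33% for tRNA synthetases, 5.56% for serine, asparagine and one-carbon enzymes and 3.03% for DNA replication genes. It was 0% for mitosis, ribosome biogenesis and cilium genes. Of the 30 interferon-stimulated genes 21 were called lower. The letters of the E2F element, given below, stood in 6 of the same 51 promoters (11.8%) and in 3.32% of genes tested. The windows from 180 to 41 bases before the start are shown for Il11 and Plaur, the urokinase receptor, with the element in capitals.
Il11 (chr7:4778182-4778321, minus strand): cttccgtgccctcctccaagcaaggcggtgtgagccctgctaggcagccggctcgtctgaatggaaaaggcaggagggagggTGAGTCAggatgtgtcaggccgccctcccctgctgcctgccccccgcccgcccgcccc
Plaur (chr7:24462303-24462442, plus strand): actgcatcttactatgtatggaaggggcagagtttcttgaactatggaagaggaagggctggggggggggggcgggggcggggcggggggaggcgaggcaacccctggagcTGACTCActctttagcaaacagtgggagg
A match in letters is a description and not a bound site, and these counts were not tested.

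Ligands of the FGF family were divided. Of 8 FGF ligands tested 3 were called higher and 1 lower, where 18.9% and 19% of all genes were. Fgf2 itself had 86.7 and 88.4 with vehicle against 179.9 and 134 with FGF2, so its change was 0.88 ± 0.19 on the log2 scale (adjusted p = 0.00253). Fgf7, the keratinocyte growth factor, had 118 and 124 with vehicle against 181 and 208 with FGF2, and Fgf1, the acidic FGF, 160.4 and 152 with vehicle against 240.0 and 224 with FGF2. In these 3 genes both FGF2 arrays were above both vehicle arrays. Fgf9, a neuronal and glial ligand, was lower at 28.0 and 36.9 with vehicle against 4.48 and 12.4 with FGF2, low signals with a change of -1.68 ± 0.48. The intracellular family members Fgf11 to Fgf14 were not called, at -0.14, 0.24, 0.49 and -0.16.

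Few receptors were called higher. Fgfr1 had 994 and 1003 with vehicle against 1096 and 961 with FGF2, and its change of 0.01 ± 0.07 was not called. Fgfr3, the receptor enriched in astrocytes, had 499.8 and 487 with vehicle against 320.3 and 308 with FGF2, a change of -0.66 ± 0.09 (adjusted p = 6.62e-05). Fgfr2 had 591 and 592 with vehicle against 481 and 479 with FGF2, a change of -0.32 ± 0.08, and a second probe set of each of these receptors, at -0.35 and -0.23, was not called. Fgfr4 had low signals of 36.3 and 26.5 with vehicle against 18.3 and 8.39 with FGF2 and was not called. Of the heparan sulfate carriers, the glypicans Gpc6 and Gpc4 fell by 0.86 and 0.40 on the log2 scale, while Gpc1, Sdc1, Sdc2 and Sdc3 were not called, at -0.21, 0.23, -0.04 and -0.01. Lower-signal probe sets of Sdc1 gave 0.41, 0.48 and 0.86 and one of Sdc2 0.47, all called over all probe sets. In all, 2 of 18 receptors and coreceptors were called higher and 5 lower (3 higher and 2 lower recentred), with a median of -0.03. The share called, 38.9%, was near the 37.9% of all genes tested. The 2 higher ones, the receptor antagonist Il17rd and the syndecan Sdc4, lost their call under several alternatives.

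In the signalling core 6 of 23 genes were called higher and 3 lower (12 higher and 3 lower recentred). The share called, 39.1%, was near the 37.9% of all genes tested. The docking protein Gab1, which couples the receptor to PI3 kinase, had 963 and 840.1 with vehicle against 325 and 342 with FGF2, a log2 change of -1.45 ± 0.09, and its 2 other probe sets gave -0.84 and -0.81. The kinase Braf had 463 and 382 with vehicle against 252 and 273 with FGF2, a change of -0.68 ± 0.10, and the PI3 kinase regulatory subunit Pik3r1 347 and 369.7 with vehicle against 246 and 229.5 with FGF2. Map2k3, a kinase that activates p38, rose from 166 and 176 with vehicle to 286 and 317 with FGF2, and Akt1 rose by 0.51 ± 0.08.

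Of 20 inhibitors of ERK signalling tested 13 were called higher, 1 was called lower and 6 were not called, with a median log2 change of 0.86 beside -0.0039 over all genes. The Spred proteins, which block RAF activation at the membrane, all rose. Spred2 had 423 and 473 with vehicle against 1533 and 1554 with FGF2, a change of 1.76 ± 0.07. Spred1 had 476 and 518 with vehicle against 1297 and 1289 with FGF2, and of its 6 other probe sets 5 gave 1.01 to 1.41 and 1, at low signal, was not called. Spred3 had 64.3 and 63.8 with vehicle against 159 and 141 with FGF2. Of the Sproutys, Spry4 had 24.8 and 27.4 with vehicle against 134 and 92.0 with FGF2 and Spry1 115 and 133 with vehicle against 293 and 280.4 with FGF2, changes of 2.20 ± 0.21 and 1.23 ± 0.11, and Spry2 rose by 1.28. Dusp6 and Dusp5, which act mostly on ERK, rose by 2.24 and 1.65, and Dusp4 rose by 2.60. Dusp5 had 31.3 and 58.7 with vehicle against 139 and 115 with FGF2. Dusp1, which acts on p38 and JNK as well, rose by only 0.27, and Dusp10, Dusp8, Dusp14 and Dusp7 were not called, at 0.13, -1.22, -0.05 and 0.44. A Dusp7 probe set of low signal had 3.89 and 6.82 with vehicle against 43.5 and 28.5 with FGF2. Its change was 2.65 (adjusted p = 0.00215 over all probe sets by limma), while another gave 0.67 and was not called. Dusp7 was called higher under 1 alternative. The member called lower was Dusp16, a phosphatase of JNK and p38, with 248 and 254 with vehicle against 197 and 204 with FGF2, and its change of -0.30 ± 0.10 lost its call recentred and without any 1 of the 4 arrays. Lrig1, a membrane protein that restrains receptor tyrosine kinases, was called at 0.35, lost its call without replicate 2 of either group, and had -0.52 by the probe set whose name marks 1 transcript. Errfi1, an inhibitor of the EGF receptor, had 209 and 220.2 with vehicle against 413 and 439.7 with FGF2, and Rasa1, a GTPase activator of RAS, 457 and 429 with vehicle against 769 and 725 with FGF2. In the 11 called genes named here other than Dusp1, Dusp16 and Lrig1, both FGF2 arrays exceeded both vehicle arrays by more than the replicates differed.

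ETS factors are direct targets of ERK. Etv4 had 1.67 and 4.45 with vehicle against 26.7 and 63.3 with FGF2, a log2 change of 3.42 ± 0.47 whose size depends on vehicle values near the pseudocount. Etv5 had 373 and 359 with vehicle against 879 and 983 with FGF2, a change of 1.33 ± 0.08, and 2 further probe sets gave 1.57 and 1.69. Elk3, a ternary complex factor, had 309 and 289 with vehicle against 541 and 669.8 with FGF2, and Ets1 63.4 and 66.2 with vehicle against 116 and 106 with FGF2. Elf1 went the other way at 207 and 224 with vehicle against 137 and 99.3 with FGF2, a change of -0.85 ± 0.15. The other ETS genes, Ets2, Etv3, Etv6, Elk1, Elk4, Elf2 and Gabpa, were not called, between -0.16 and 0.43. A second Etv6 probe set gave 1.78 (adjusted p = 0.00405 over all probe sets by limma), and Etv6 was called higher under 4 alternatives, with 1.07 when its probe sets were averaged. Erf was called at 0.39 but lost its call when any of several choices changed.

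**Figure D3:**
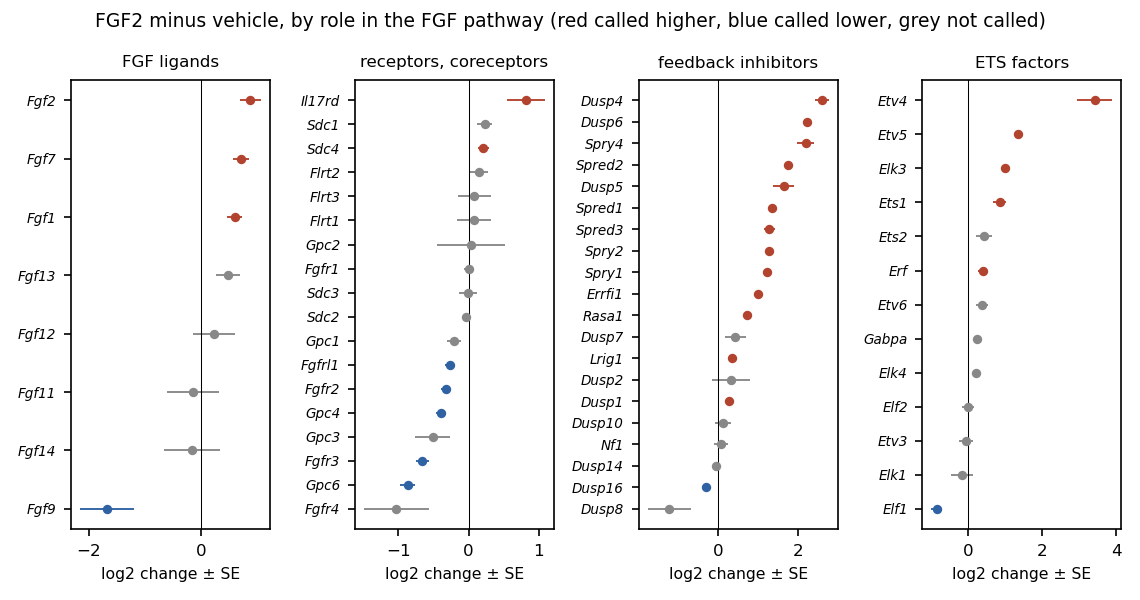
Log2 change FGF2 minus vehicle with its SE (n = 2 arrays a group) for FGF ligands, receptors and coreceptors, inhibitors of ERK signalling and ETS factors; red members were called higher, blue lower and grey not called. Of the 20 inhibitors 13 are red, led by Dusp4 at 2.60, while 2 of 18 receptors and coreceptors are.

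Immediate early genes were not raised together. Of 24 AP-1 and early factors 5 were called higher and 8 lower (6 higher and 7 lower recentred), and 5 lower without replicate 2 of FGF2. Fosl1 had the highest change, and the small MAF protein Maff had 85.9 and 78.8 with vehicle against 190.3 and 199.8 with FGF2, a log2 change of 1.30 ± 0.13. Ier3, an early gene of growth factor signalling, had 443 and 506 with vehicle against 735 and 791 with FGF2, and Klf10 rose by 0.68 ± 0.13. Egr1, Jun, Ier2, Srf, Klf4 and Klf6 were not called, between -0.10 and 0.10, and Egr1 had 539.6 and 536 with vehicle against 549 and 509.9 with FGF2. Myc had 133 and 127 with vehicle against 166 and 147 with FGF2 and was not called (adjusted p = 0.0709). In the other direction Fos had 1212 and 1317 with vehicle against 627 and 627 with FGF2, a change of -1.03 ± 0.11, Jund had 745 and 804 with vehicle against 354 and 387 with FGF2 and Junb 138 and 135 with vehicle against 80.1 and 78.9 with FGF2. Atf3, a stress-induced partner of JUN, had 154 and 174 with vehicle against 12.7 and 34.0 with FGF2, a change of -2.81 ± 0.34. In Fos, Jund, Junb and Atf3 both vehicle arrays were above both FGF2 arrays.

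Genes of cell division were called higher in each list that holds them. Of 27 genes of the G1 phase 12 were called higher and 5 lower (12 higher and 3 lower recentred), and 3 lower without replicate 2 of FGF2. Cyclin D1, Ccnd1, the cyclin that mitogens induce, had 4334 and 4462 with vehicle against 7582 and 8348 with FGF2, a log2 change of 0.61 ± 0.04, and its 2 other probe sets gave 0.74 and 0.96. The E cyclins that activate CDK2 had larger changes from lower signals: Ccne2 had 71.8 and 61.5 with vehicle against 209 and 196 with FGF2 and Ccne1 69.9 and 57.8 with vehicle against 163 and 161 with FGF2, changes of 1.67 ± 0.18 and 1.42 ± 0.16. The CDK4 inhibitor Cdkn2b fell from 1148 and 1277 with vehicle to 795 and 853 with FGF2. Rb1, the retinoblastoma protein, fell by 0.90 by its probe set of highest signal, but had 0.21 with an average over its probe sets.

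Of 41 DNA replication genes 35 were called higher and 0 lower, with a median of 0.81, and 15 rose at least 2-fold. At an unadjusted p under 0.05, 0 of the list were lower by limma. Cdt1, which loads the replicative helicase, had 143 and 132 with vehicle against 605 and 589 with FGF2, a change of 2.12 ± 0.08. The helicase subunits Mcm5 and Mcm3 had 116 and 124 with vehicle against 492 and 502 with FGF2 (Mcm5) and 104 and 85.8 with vehicle against 316 and 308 with FGF2 (Mcm3), and Mcm7 rose by 1.21 ± 0.07. Rfc3, a subunit of the clamp loader, had 129 and 130.1 with vehicle against 358 and 383 with FGF2. Of 25 nucleotide synthesis genes 17 were called higher and 1 lower. Rrm2, the regulated subunit of ribonucleotide reductase, had 380.3 and 368 with vehicle against 1055 and 1071 with FGF2, a change of 1.48 ± 0.08. Dut, which removes dUTP, had 109 and 119 with vehicle against 397 and 356 with FGF2, and the salvage kinase Dck 223 and 231 with vehicle against 473 and 433 with FGF2. Of 32 mitosis genes 22 were called higher and 1 lower, with a median of 0.99. The kinase Cdk1 had 205 and 232 with vehicle against 425 and 439.9 with FGF2, the checkpoint kinase Bub1 28.0 and 22.1 with vehicle against 108 and 84.1 with FGF2 and cyclin A2, Ccna2, 68.5 and 73.0 with vehicle against 162 and 158 with FGF2. In all of these genes the FGF2 arrays lay above the vehicle arrays with no overlap. Without replicate 2 of FGF2 14 mitosis genes were called higher, and with the average over each gene's probe sets 11.

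The letters TTTCCCGC or TTTGGCGC, the E2F element, stood in 12 of 33 replication gene promoters (36.4%), on either strand, against 3.32% of genes tested, 5.09% of genes called higher and 2.18% of genes called lower. None of 27 mitosis gene promoters held them in this window, while the letters CCAAT stood in 22 of these 27 (81.5%) and in 43.0% of genes tested. The promoters of Mcm7 and Mcm5, whose E2F element lies upstream of the start, are shown from 180 to 41 bases before it with the element in capitals.
Mcm7 (chr5:138171924-138172063, minus strand): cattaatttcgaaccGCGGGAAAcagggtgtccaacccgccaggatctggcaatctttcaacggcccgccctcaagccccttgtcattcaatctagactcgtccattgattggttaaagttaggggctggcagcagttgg
Mcm5 (chr8:75109329-75109468, plus strand): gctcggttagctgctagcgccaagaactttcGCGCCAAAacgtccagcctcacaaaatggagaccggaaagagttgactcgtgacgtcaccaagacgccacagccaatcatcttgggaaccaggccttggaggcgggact
The elements of Cdt1, Rfc3 and Mcm3 lie at or after the start site and are not shown.

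Genes for making ribosomes and charging tRNA were mostly called higher. Of 35 ribosome biogenesis genes 28 were called higher and 0 lower (0 lower at an unadjusted p under 0.05 by limma), with a median of 0.69. Fbl, the methyltransferase of ribosomal RNA, had 359 and 360.4 with vehicle against 939 and 925 with FGF2, a change of 1.36 ± 0.09. Nhp2, a protein of H/ACA particles, had 543 and 689.7 with vehicle against 1437 and 1464 with FGF2, and the nucleolar chaperone Npm1 2557 and 2745 with vehicle against 4389 and 4747 with FGF2. Of 19 cytosolic aminoacyl-tRNA synthetases 17 were called higher and 0 lower (0 lower at an unadjusted p under 0.05 by limma), with changes from 0.50 to 1.29 and a median of 0.65. Gars, the glycine enzyme, had 448 and 482 with vehicle against 1023 and 1004 with FGF2, and Wars, the tryptophan enzyme, 455 and 399 with vehicle against 1049 and 953 with FGF2, changes of 1.11 ± 0.08 and 1.21 ± 0.09. The asparagine enzyme Nars had 1411 and 1452 with vehicle against 2827 and 2659.9 with FGF2. The letters TGATGCAA of the ATF4 element stood in 4 of 12 synthetase promoters (33.3%) and in 0.678% of genes tested. In the serine, asparagine and one-carbon list, described next, they stood in 1 of 18 promoters (5.56%). Of genes that rose at least 4-fold 0 of 51 held them.

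Enzymes of serine, asparagine and one-carbon metabolism supply amino acids and folate carbon units. Of 20 tested 11 were called higher and 2 lower, with a median of 0.52, and 9 rose at least 2-fold. Asns, asparagine synthetase, had 397 and 360.3 with vehicle against 2016 and 1854 with FGF2, a log2 change of 2.32 ± 0.09. The serine pathway enzymes Psph and Phgdh had 333 and 356 with vehicle against 1226 and 1109 with FGF2 (Psph) and 925 and 910.0 with vehicle against 2255 and 2261 with FGF2 (Phgdh). Aldh18a1, which starts proline synthesis, had 257 and 243 with vehicle against 762 and 723 with FGF2, and Atf5, a transcription factor induced by amino acid shortage, 423 and 415 with vehicle against 1065 and 1019 with FGF2. In all 5 the fitted change was over 2-fold and the groups did not overlap. Amino acid transporters moved both ways, with 8 of 18 called higher and 4 lower. The leucine exchanger Slc7a5 had 119 and 116 with vehicle against 499.8 and 473 with FGF2 and the cationic transporter Slc7a1 105 and 127 with vehicle against 412 and 356 with FGF2, changes of 2.07 ± 0.09 and 1.75 ± 0.15. The glutamine and alanine carriers Slc38a1 and Slc38a2 moved the other way, with 2626 and 2523 with vehicle against 1156 and 1108 with FGF2 (Slc38a1) and 1214 and 1102 with vehicle against 534 and 558 with FGF2 (Slc38a2), changes of -1.23 ± 0.07 and -1.11 ± 0.09. Slc7a2, a second cationic transporter, fell by 0.77.

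Of 21 glycolysis and lactate genes 2 were called higher and 12 lower, with a median of -0.29, but recentred 4 were higher and 6 lower, with a median of 0.02. Hk2, the growth factor regulated hexokinase, had 123 and 138 with vehicle against 341 and 341 with FGF2, a log2 change of 1.40 ± 0.12. The monocarboxylate transporter Slc16a1 had 3967 and 4043 with vehicle against 1806 and 1775 with FGF2, a change of -1.28 ± 0.08. The glucose transporter Slc2a1 had 1257 and 1106 with vehicle against 669 and 622 with FGF2, the phosphofructokinase Pfkp 2590.3 and 2560.1 with vehicle against 1399.6 and 1426 with FGF2 and the aldolase of astrocytes Aldoc 3675 and 3631 with vehicle against 2232 and 2149.8 with FGF2. These 4 lower genes kept their direction and call under each scaling tried. Glycogen is stored mostly in astrocytes in the brain, and 4 of its 12 genes were called lower and 2 higher (4 higher and 4 lower recentred). Ppp1r3c, which targets phosphatase to glycogen, had 1320.2 and 1194 with vehicle against 408 and 405 with FGF2, a change of -1.64 ± 0.09. The phosphorylases Pygb and Pygl had 1824 and 1636 with vehicle against 789 and 736 with FGF2 (Pygb) and 109 and 90.3 with vehicle against 35.2 and 32.7 with FGF2 (Pygl), and Ugp2, which makes UDP-glucose, fell by 0.78.

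**Figure D4:**
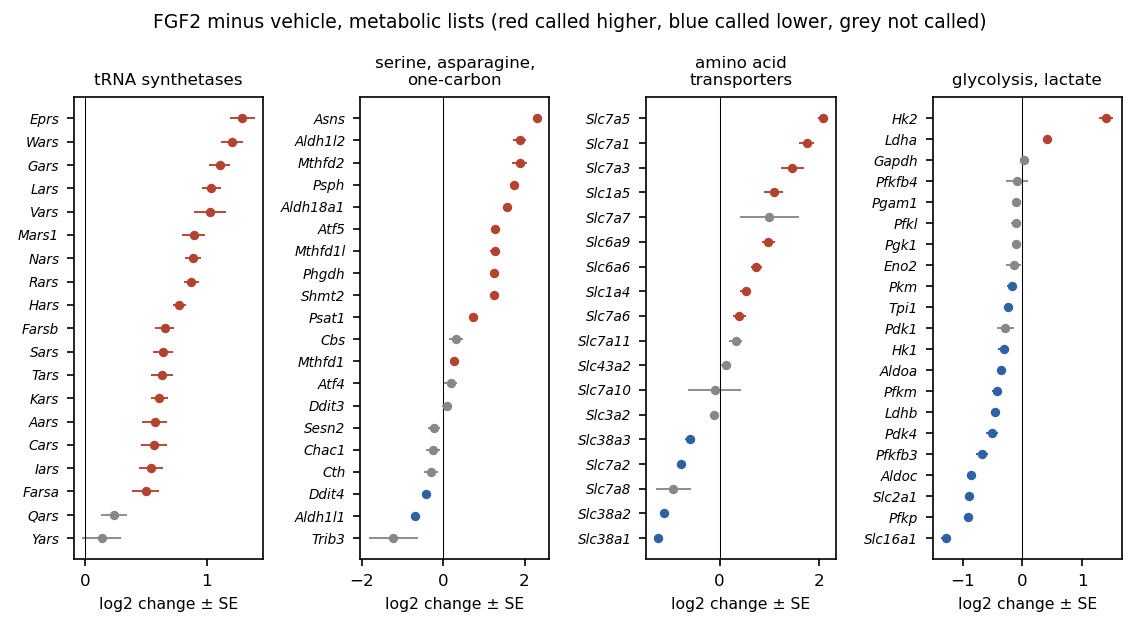
Log2 change FGF2 minus vehicle with its SE (n = 2 arrays a group) for tRNA synthetases, enzymes of serine, asparagine and one-carbon metabolism, amino acid transporters, and glycolysis and lactate genes; red members were called higher, blue lower and grey not called. The synthetases all lie above 0, 17 of 19 of them called, and the glycolysis panel runs from Slc16a1 at -1.28 to Hk2 at 1.40.

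In cholesterol synthesis and oxidative phosphorylation no called change reached 2-fold, and the balance depends on the centring. Of 20 cholesterol synthesis genes 5 were called higher and 4 lower (8 higher and 0 lower recentred), and of 25 genes of oxidative phosphorylation 3 and 4 (20 higher and 0 lower recentred). The shares called, 45% and 28%, stand beside 37.9% of all genes tested. Hmgcs1, which begins the cholesterol pathway, had 3444 and 3333 with vehicle against 2612 and 2602 with FGF2, a change of -0.51 ± 0.06, and Insig1, which retains the sterol sensor in the endoplasmic reticulum, had 366 and 354 with vehicle against 509 and 509 with FGF2. Of 16 fatty acid synthesis genes 4 were called higher and 4 lower (8 higher and 3 lower recentred), and 2 of the higher and 1 of the lower changed at least 2-fold. Acsl4, which activates polyunsaturated fatty acids, had 108 and 100.2 with vehicle against 227 and 198 with FGF2, a change of 1.07 ± 0.12, and Thrsp, a regulator of lipid synthesis, had 439 and 393 with vehicle against 189 and 224 with FGF2. The desaturases Fads1 and Fads2 fell by 0.45 and 0.69. The lipoprotein receptor Vldlr had 177 and 161 with vehicle against 448 and 388 with FGF2 and rose by 1.32 ± 0.12, while Apod, an apolipoprotein of glia, had 2634 and 2947 with vehicle against 1213 and 1492 with FGF2, and Lpl, lipoprotein lipase, 439 and 371 with vehicle against 162 and 163 with FGF2. Targets of NRF2 were divided, 8 of 21 higher and 5 lower (13 higher and 1 lower recentred). Srxn1 and Hmox1, sulfiredoxin and heme oxygenase, had 633 and 622 with vehicle against 1157 and 1137 with FGF2 (Srxn1) and 832 and 799 with vehicle against 1409.7 and 1396 with FGF2 (Hmox1), and Gstm1, a glutathione transferase, had 6250.2 and 6327 with vehicle against 4517 and 4836 with FGF2, a change of -0.63 ± 0.04. The probe sets of Srxn1 and Gstm1 can bind several transcripts.

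Genes of astrocyte function were mostly lower. Of 16 astrocyte markers 14 were called lower and 2 higher, with a median of -0.78. The 2 higher ones were Slc4a4 and Fabp7, with log2 changes of 0.83 and 0.30. Slc4a4 had 601 and 599 with vehicle against 1071 and 1116 with FGF2. Fabp7 had 2252 and 2308 with vehicle against 2833 and 3115 with FGF2. Glutamate and GABA handling had 7 of 10 called lower and 1 higher. The glutamate transporter Slc1a2 had 655 and 568 with vehicle against 369 and 334 with FGF2, a log2 change of -0.83 ± 0.10, though its 2 other probe sets, at signals under 60, were not called. Glutamine synthetase, Glul, had 3811 and 3907 with vehicle against 2441 and 2499 with FGF2, and the GABA transaminase Abat 1161 and 1145 with vehicle against 699 and 715 with FGF2. Maob, monoamine oxidase B, had 246 and 228 with vehicle against 123 and 79.6 with FGF2, a change of -1.21 ± 0.17. Got1, the aspartate aminotransferase, was the exception, at 258 and 308 with vehicle against 469 and 446 with FGF2.

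Channels and membrane proteins of astrocytes had 11 of 17 called lower and 1 higher, Slc4a4 at 0.83. Aqp4 had 5502 and 5179 with vehicle against 1592 and 1523 with FGF2, a log2 change of -1.92 ± 0.06, and its 2 other probe sets gave -1.86 and -1.75. The potassium channels Kcnk2 and Kcnj10 had 364 and 435 with vehicle against 125.8 and 128 with FGF2 (Kcnk2) and 788 and 865 with vehicle against 268 and 323 with FGF2 (Kcnj10). Hepacam, an adhesion protein that organises astrocyte contacts, had 553 and 510.3 with vehicle against 239 and 219 with FGF2, and Mlc1, its membrane partner, 4179 and 4043 with vehicle against 2616 and 2691 with FGF2. No FGF2 array overlapped a vehicle array in these 5 genes. Of 7 connexins and pannexins tested 3 were called lower and 1 higher. The lower ones were the astrocyte connexins: Gja1, connexin 43, had 4574 and 4709 with vehicle against 2123 and 2146 with FGF2, a change of -1.28 ± 0.06, and 5 further probe sets gave -0.53 to -2.55. Gjb6, connexin 30, had 88.9 and 75.8 with vehicle against 9.51 and 9.54 with FGF2, a change of -2.81 ± 0.44, beside Gjb2 at -3.25. Gjc1 rose by 0.41 and Panx1, a pannexin, was not called, at 0.31. Of 15 astrocyte receptors 9 were called lower and 3 higher (3 higher and 6 lower recentred), and the sphingosine phosphate receptor S1pr3 had 4976 and 5309 with vehicle against 2403 and 2258 with FGF2, the neurotensin receptor Ntsr2 409 and 357 with vehicle against 147 and 151 with FGF2 and the endothelin receptor Ednrb 1433 and 1377 with vehicle against 752 and 721 with FGF2.

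Transcription factors of glia and progenitors moved both ways, with 9 of 31 called higher and 12 lower (11 higher and 6 lower recentred). Olig2, a factor of progenitors and oligodendrocyte lineage cells, had 239 and 259 with vehicle against 874 and 941 with FGF2, a log2 change of 1.86 ± 0.08. Olig1 had 1626 and 1641 with vehicle against 3166 and 3257 with FGF2, a change of 0.91 ± 0.06, and the Notch target Hes1 had 111 and 117 with vehicle against 321 and 322 with FGF2. Id4, an inhibitor of basic helix-loop-helix factors, had 3235 and 3145 with vehicle against 1801 and 1774 with FGF2, a change of -0.92 ± 0.06. Other oligodendrocyte precursor genes did not follow Olig1 and Olig2: Pdgfra and Sox10 were not called, at 0.16 and -0.39, and Cspg5 and Lhfpl3 fell by 0.69 and 0.88. Among 21 filament and cytoskeleton genes 6 were called higher and 6 lower (12 higher and 4 lower recentred). The tubulin Tubb6 had 216 and 257 with vehicle against 980.3 and 939.8 with FGF2, a change of 2.02 ± 0.10, Tubb3, also on the list of neuronal markers, had 50.4 and 52.9 with vehicle against 119 and 118 with FGF2 and nestin, Nes, 559 and 464 with vehicle against 937 and 937 with FGF2. Gfap, the astrocyte filament, had 3182 and 3237 with vehicle against 2144 and 2256 with FGF2, a change of -0.65 ± 0.06, with -0.96 and -0.51 by its 2 other probe sets, and the membrane linker Ezr had 2283 and 2252 with vehicle against 1701 and 1632 with FGF2.

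Of 11 genes of the EGF receptor family 3 were called higher and 0 lower, and the 3 were ligands of EGFR (1 of the 11 were lower at an unadjusted p under 0.05 by limma). The share called, 27.3%, lay below the 37.9% of all genes tested, and the median change of the list was -0.05. Hbegf, heparin-binding EGF, had 923 and 919.7 with vehicle against 3259 and 3436 with FGF2, a log2 change of 1.81 ± 0.05. Ereg, epiregulin, had 23.5 and 19.0 with vehicle against 108 and 103 with FGF2 and Tgfa 55.0 and 55.9 with vehicle against 175 and 158 with FGF2, changes of 2.42 ± 0.21 and 1.66 ± 0.14. The receptors Egfr, Erbb2 and Erbb3 were not called, at -0.05, -0.14 and -0.20, nor were the ligands Nrg1, Nrg2, Egf and Btc, at -0.72, -0.83, -0.55 and 0.25, or the sheddase Adam17. A second Btc probe set, with low signals, gave 1.67 (adjusted p = 0.0089 over all probe sets by limma), and Btc was called higher when its probe sets were averaged.

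In the IL-6 family 3 ligands were called higher, and 3 receptor subunits and 1 ligand lower. Beside Il11, the ligand Clcf1 had 181 and 163 with vehicle against 1047 and 988 with FGF2, a log2 change of 2.57 ± 0.12, and Lif had 15.03 and 18.3 with vehicle against 79.6 and 87.2 with FGF2, a change of 2.41 ± 0.22. The ligand Ctf1, cardiotrophin, was lower at 224 and 240.3 with vehicle against 98.4 and 101 with FGF2. The shared receptor subunit gp130, Il6st, had 1139 and 960.4 with vehicle against 465 and 479 with FGF2, a change of -1.16 ± 0.09, and its 3 other probe sets gave -0.95 to -1.37. The receptors Lifr and Osmr had 200.4 and 193 with vehicle against 91.9 and 99.5 with FGF2 (Lifr) and 1905 and 1788 with vehicle against 1244 and 1313 with FGF2 (Osmr). Downstream, Stat3 had 1244 and 1135 with vehicle against 797 and 817 with FGF2 and the feedback inhibitor Socs3 877 and 1062 with vehicle against 460.3 and 369 with FGF2, changes of -0.59 ± 0.07 and -1.24 ± 0.20. The receptors Cntfr and Il6ra, at -0.11 and 0.32, were not called, nor were Osm, Socs1, Socs2 and Jak1. Of the 16 genes 3 were called higher and 7 lower (3 higher and 6 lower recentred), and in each gene with values given here the groups did not overlap.

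Among other secreted factors, Igfbp3, a carrier of insulin-like growth factors, had 666 and 712 with vehicle against 3244 and 3199 with FGF2, a log2 change of 2.16 ± 0.06, while Igf1 had 339.6 and 311 with vehicle against 102 and 96.9 with FGF2, Igf2 2328 and 2055 with vehicle against 1166 and 1161 with FGF2 and the carrier Igfbp5 6853 and 6267 with vehicle against 3178 and 3854 with FGF2. The receptor Igf1r rose from 199.9 and 195 with vehicle to 343 and 345 with FGF2. Kitl, the ligand of KIT, had 312 and 395 with vehicle against 1544 and 1461 with FGF2, a change of 2.07 ± 0.10, and 3 further probe sets gave 1.93 to 2.10. The vessel factor Angpt1 had 511 and 521 with vehicle against 151 and 132 with FGF2, a change of -1.86 ± 0.12, and Pdgfa rose by 0.59. Of the chemokine genes, 3 of 14 were called higher and 4 lower. Ccl2, which attracts monocytes, had 38.2 and 62.7 with vehicle against 178 and 193 with FGF2, and Cx3cl1, fractalkine, 453 and 425 with vehicle against 786 and 848 with FGF2. Cxcl12 and its receptor Cxcr4 had 458 and 427 with vehicle against 182 and 168 with FGF2 (Cxcl12) and 316 and 374 with vehicle against 126.3 and 131 with FGF2 (Cxcr4), changes of -1.33 ± 0.11 and -1.40 ± 0.15. Ntrk2, the BDNF receptor that astrocytes carry mostly in a truncated form, fell by 0.54, and the heparin-binding factors Ptn and Mdk fell by 0.48 and 0.51.

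Morphogen pathways had members called in both directions, where 18.9% of all genes tested were called higher and 19% lower. The BMP, Notch and Hedgehog lists had 39.1%, 43.5% and 33.3% of their members called, near the 37.9% of all genes. In the TGF-beta list 6 of 18 were called higher and 5 lower (9 higher and 3 lower recentred), and 3 lower without replicate 1 of either group. The ligand Tgfb2 had 374 and 326 with vehicle against 146 and 155 with FGF2, a log2 change of -1.20 ± 0.12, Tgfb3 had 443 and 454 with vehicle against 213 and 268 with FGF2 and the coreceptor Tgfbr3 325 and 275 with vehicle against 141 and 153 with FGF2. The corepressor Tgif1 had 248 and 244 with vehicle against 606 and 591 with FGF2 and the latent binding protein Ltbp1 124 and 98.0 with vehicle against 349 and 262 with FGF2, changes of 1.28 ± 0.08 and 1.48 ± 0.15. In the BMP list 2 of 23 were called higher and 7 lower (4 higher and 6 lower recentred), and 4 lower without replicate 2 of FGF2. There the antagonist follistatin, Fst, had 266 and 252 with vehicle against 129 and 129 with FGF2 and Gdf10 had 127 and 76.7 with vehicle against 25.8 and 29.8 with FGF2. In the Wnt list 7 of 35 were called higher and 15 lower (9 higher and 11 lower recentred), with a median of -0.40. Without replicate 1 of vehicle 9 were lower, and without either FGF2 array 3 were higher. The secreted antagonists Sfrp1 and Dkk3 had 637 and 678 with vehicle against 375 and 313 with FGF2 (Sfrp1) and 515 and 555 with vehicle against 279 and 345 with FGF2 (Dkk3), the ligand Wnt5a and its receptor Ror1 fell by 0.75 and 0.91, and the receptor Fzd1 rose from 597 and 638 with vehicle to 1125 and 1137 with FGF2. Of Notch genes 4 of 23 were called higher and 6 lower (4 higher and 4 lower recentred), 3 of them lower without replicate 2 of vehicle, and the ligand Jag1 had 266 and 211 with vehicle against 571 and 582 with FGF2, a change of 1.28 ± 0.10, while the receptor Notch2 and the antagonist Numb fell by 0.60 and 0.75. Shh, the Hedgehog ligand, had 640.2 and 671 with vehicle against 1777 and 1769 with FGF2, a change of 1.38 ± 0.07, and a second probe set gave 0.99. Its coreceptors Gas1 and Cdon had 1521 and 1238 with vehicle against 637 and 726 with FGF2 (Gas1) and 248.7 and 258 with vehicle against 103 and 93.8 with FGF2 (Cdon), changes of -1.03 ± 0.13 and -1.33 ± 0.13, and the receptor Ptch1, a target of the pathway, was at -0.20, a call lost under several alternatives.

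Matrix genes moved in both directions. Of 33 collagens and basement membrane genes 5 were called higher and 13 lower (9 higher and 11 lower recentred), and of 25 proteoglycans and tenascins 6 and 10 (6 higher and 8 lower recentred). Col1a1 and Col1a2, the chains of type I collagen, had 743 and 664 with vehicle against 271 and 268 with FGF2 (Col1a1) and 2391 and 2149 with vehicle against 1037 and 1079.8 with FGF2 (Col1a2), and Nid2, a basement membrane linker, 519 and 447 with vehicle against 182 and 179 with FGF2. The small leucine-rich proteoglycans Prelp and Ogn had 2217 and 2110.4 with vehicle against 567 and 499 with FGF2 (Prelp) and 1977 and 1961 with vehicle against 734 and 659.7 with FGF2 (Ogn), changes of -2.07 ± 0.08 and -1.55 ± 0.08. These 5 genes fell together with the fibroblast and pericyte markers, 11 of 13 of which were called lower and 0 higher (0 higher at an unadjusted p under 0.05 by limma), and the type I collagens and Ogn are themselves on that list. Whether fewer such cells account for it was not tested. Fibronectin, Fn1, rose from 2191 and 1993 with vehicle to 3626 and 3692 with FGF2, tenascin C, Tnc, from 559 and 534 with vehicle to 1818 and 1923 with FGF2 and the hyaluronan receptor Cd44 from 1526 and 1514 with vehicle to 3047 and 3198 with FGF2. In the plasminogen system 4 of 10 were called higher and 3 lower, with Plaur at 32.7 and 25.7 with vehicle against 135 and 145 with FGF2, the annexin Anxa2, a plasminogen receptor, at 4570.2 and 4641 with vehicle against 7918 and 8645 with FGF2 and the protease inhibitor A2m at 3945 and 2933 with vehicle against 1300.3 and 1345 with FGF2. Of metalloproteinases and their inhibitors 3 of 21 were called higher and 9 lower (5 higher and 4 lower recentred), with 4 and 5 lower without replicate 2 of vehicle and of FGF2. The inhibitor Timp1 had 936 and 1041 with vehicle against 3094 and 3252 with FGF2, a change of 1.62 ± 0.08, and Mmp3, stromelysin, 519.9 and 537 with vehicle against 936 and 1025 with FGF2, while the gelatinase Mmp2 had 705 and 667 with vehicle against 346 and 356 with FGF2 and Timp2 and Timp3 fell by 0.54 and 0.68.

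Adhesion and guidance genes changed one by one. The integrin subunits Itgav and Itga3 had 1731 and 1658 with vehicle against 2492 and 2532 with FGF2 (Itgav) and 238 and 242 with vehicle against 398 and 389 with FGF2 (Itga3) and rose by 0.49 and 0.72, while Itga8 fell from 127 and 133 with vehicle to 49.9 and 50.6 with FGF2, with 5 of 13 subunits called in each direction (6 higher and 3 lower recentred). Without replicate 1 of either group 3 were lower, and without replicate 2 of FGF2 3 were higher. The protocadherin Pcdh10 had 687 and 711 with vehicle against 329 and 324 with FGF2, a log2 change of -1.13 ± 0.10, and the adhesion molecule Cadm1 660.5 and 658 with vehicle against 1178 and 1122 with FGF2. The Eph receptor Epha2 had 65.9 and 60.3 with vehicle against 122 and 147 with FGF2 and the ephrin Efnb2 333 and 295 with vehicle against 515 and 536 with FGF2. Of 33 guidance genes 7 were called higher and 9 lower (7 higher and 7 lower recentred). Sema3a had 66.1 and 71.3 with vehicle against 156 and 167 with FGF2, a change of 1.30 ± 0.15, and the netrin receptor Unc5b 61.5 and 60.5 with vehicle against 146 and 129 with FGF2, while Sema6d and Sema3c had 2445 and 2289 with vehicle against 1304 and 1185 with FGF2 (Sema6d) and 1626 and 1519.7 with vehicle against 957 and 996 with FGF2 (Sema3c).

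Of 30 interferon-stimulated genes 21 were called lower and 0 higher (0 higher at an unadjusted p under 0.05 by limma), with a median of -0.61. Ifit3 and Ifit1, antiviral RNA-binding proteins, had 2256 and 2600.3 with vehicle against 799 and 764 with FGF2 (Ifit3) and 619 and 745 with vehicle against 270.2 and 248.6 with FGF2 (Ifit1), log2 changes of -1.69 ± 0.12 and -1.41 ± 0.11. The guanylate-binding proteins Gbp2 and Gbp3 had 602 and 606 with vehicle against 290.0 and 263 with FGF2 (Gbp2) and 223 and 241 with vehicle against 113 and 103 with FGF2 (Gbp3), and Bst2, tetherin, 666 and 742 with vehicle against 418 and 472 with FGF2. In each of the 5 both vehicle arrays were above both FGF2 arrays, and the Ifit genes had higher signals on vehicle replicate 2 than on replicate 1. MHC class I presentation had 6 of 15 lower and 1 higher (3 higher and 3 lower recentred), with B2m, the light chain, at 5931 and 6095 with vehicle against 4748 and 5018 with FGF2 and the loading chaperone Tapbp at 1128 and 1173 with vehicle against 775 and 738 with FGF2. Complement genes had 6 of 11 lower and 1 higher, among them the C1 inhibitor Serping1 at 1130.2 and 1116 with vehicle against 589 and 615 with FGF2 and the proteases C1s1 and C1ra, which fell by 1.11 and 0.91. Of 8 microglial markers tested 1 was called (12.5%, against 37.9% of all genes tested), the lysozyme gene Lyz2, which fell by 0.66.

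The letters GAAANNGAA, the interferon-stimulated response element, stood in 14 of 25 interferon gene promoters (56.0%), on either strand with N for any base, against 8.27% of genes tested and 9.99% of genes called lower. The promoters of Ifit1, Ifit3 and Gbp2 are shown from 180 to 41 bases before the start, where overlapping matches run together in the capitals.
Ifit1 (chr19:34640709-34640848, plus strand): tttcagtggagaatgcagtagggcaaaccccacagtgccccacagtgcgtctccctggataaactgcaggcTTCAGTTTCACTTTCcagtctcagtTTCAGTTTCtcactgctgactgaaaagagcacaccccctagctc
Ifit3 (chr19:34583349-34583488, plus strand): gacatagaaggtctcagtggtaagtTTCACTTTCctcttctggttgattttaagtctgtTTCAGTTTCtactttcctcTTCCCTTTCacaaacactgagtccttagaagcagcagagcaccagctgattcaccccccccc
Gbp2 (chr3:142620483-142620622, plus strand): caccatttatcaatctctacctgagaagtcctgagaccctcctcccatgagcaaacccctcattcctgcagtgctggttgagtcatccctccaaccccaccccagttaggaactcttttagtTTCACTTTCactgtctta
The promoters of Ifit1 and Ifit3 hold 3 matches each and that of Gbp2 1.

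Cilium genes had the lowest median of the cell type lists. Of 16 tested 12 were called lower and 0 higher (0 higher at an unadjusted p under 0.05 by limma), with a median of -1.22, and 10 fell at least 2-fold. Foxj1, the master factor of motile cilia, had 789 and 802 with vehicle against 380.3 and 337 with FGF2, a log2 change of -1.18 ± 0.09. Dynlrb2, a dynein light chain, had 972 and 1104 with vehicle against 238 and 266 with FGF2 and Cfap126, a cilium protein, 1385 and 1372 with vehicle against 591 and 555 with FGF2, changes of -2.05 ± 0.10 and -1.28 ± 0.07. The choroid plexus genes Folr1 and Aqp1 had 295 and 335 with vehicle against 118 and 109.8 with FGF2 (Folr1) and 471 and 473 with vehicle against 175 and 187 with FGF2 (Aqp1), while Otx2 and Ttr were not called, at -0.27 and -0.15. Whether fewer ciliated cells account for these values was not tested.

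Stress and arrest genes were mostly lower. Of 23 tested 14 were called lower and 3 higher (7 higher and 10 lower recentred). Gadd45g, a growth arrest gene, had 730.2 and 729 with vehicle against 248.7 and 293 with FGF2, a log2 change of -1.46 ± 0.11, and Txnip, an inhibitor of thioredoxin and glucose uptake, 2279 and 2206 with vehicle against 1332 and 1299 with FGF2. Nupr1, a stress-induced chromatin protein, rose from 608 and 593 with vehicle to 2365 and 2186 with FGF2, a change of 1.85 ± 0.09. Of 19 chaperones of the endoplasmic reticulum 8 were called higher and 1 lower, with changes no larger than 0.66, and Hspa5, the main chaperone, had 4299.8 and 3917 with vehicle against 6015 and 6682 with FGF2. In the list of retinoid, thyroid and vitamin D genes 6 of 18 were called higher and 7 lower (7 higher and 5 lower recentred), with 2 or 3 higher when replicate 2 of vehicle or either FGF2 array was left out. The retinaldehyde dehydrogenases Aldh1a1 and Aldh1a2 had 1635 and 1683 with vehicle against 1157 and 1179 with FGF2 (Aldh1a1) and 851 and 802 with vehicle against 579 and 606 with FGF2 (Aldh1a2), and the thyroid hormone receptor Thra fell by 0.52.

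**Figure D5:**
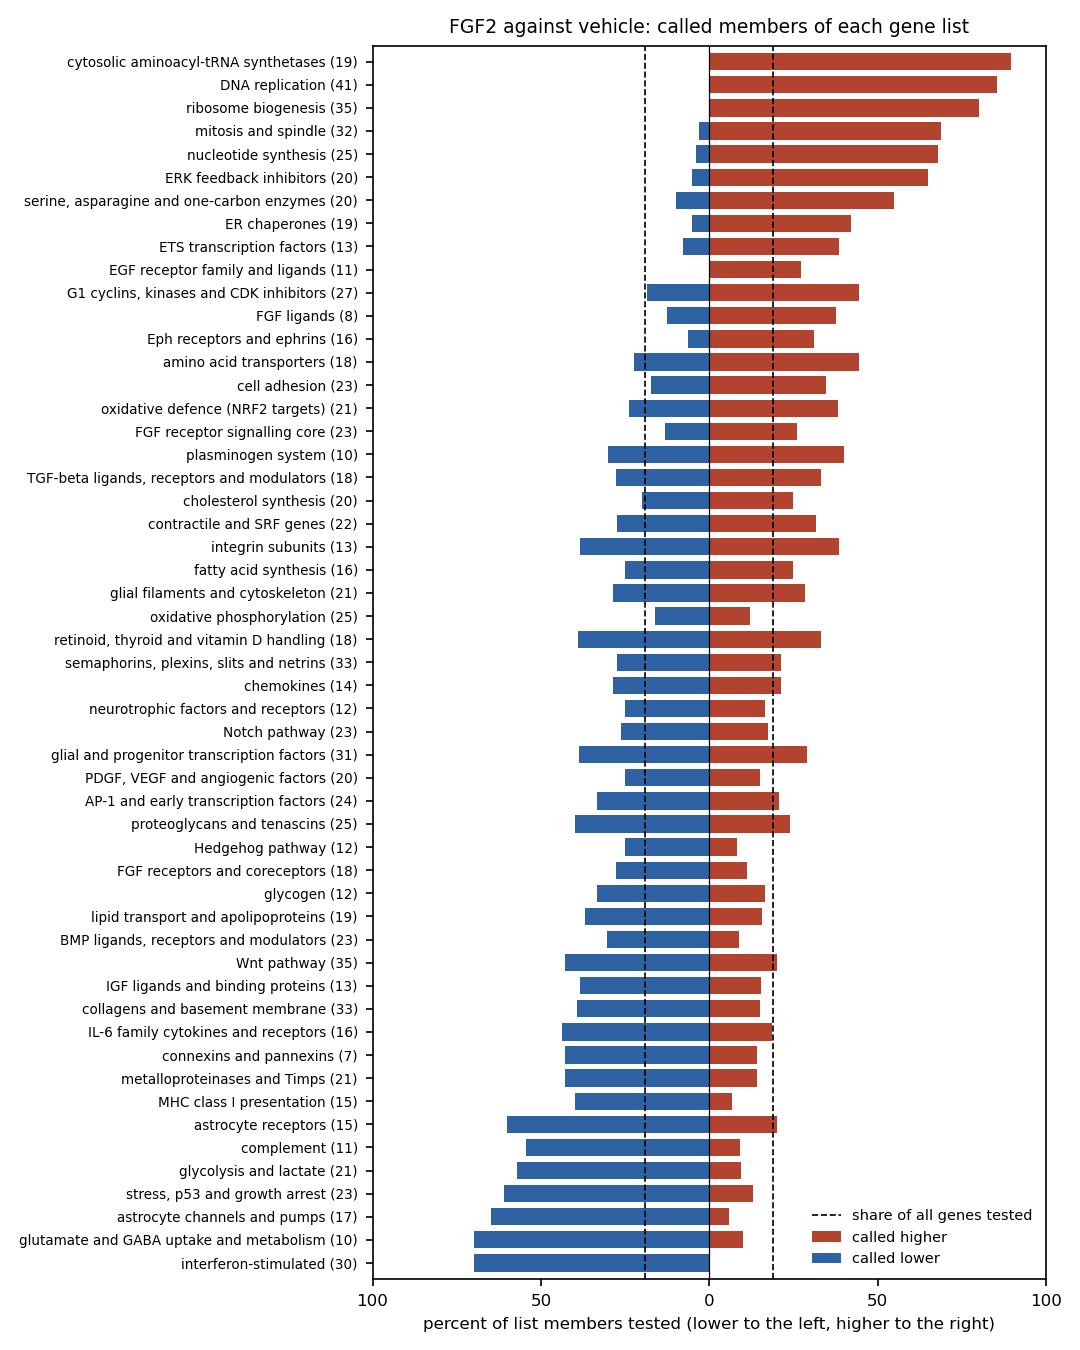
Percent of the tested members of each of the 53 pathway lists called higher (red, right) and lower (blue, left) with FGF2, with the number tested in brackets and dashed lines at the shares of all genes tested, 18.9% and 19%. The tRNA synthetases (17 of 19 higher) stand at the top and the interferon-stimulated genes (21 of 30 lower) at the bottom.

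Some calls named above depend on a choice. Recentred, the calls of Aldh1a2, B2m, Fgfr2, Gpc4, Hmgcs1, Ntrk2, Ptn and Timp2 were lost with the direction kept. With probe sets of a gene averaged, those of Abat, Akt1, Anxa2, Braf, Cdon, Cx3cl1, Cxcl12, Elf1, Ets1, Fgf1, Fgfr2, Gpc6, Igf1r, Itga3, Lhfpl3, Lifr, Ntrk2, Osmr, Slc1a2, Tgfa, Thra, Thrsp, Timp2 and Wnt5a were lost in the same way. With only probe sets that have no _s_at, _x_at or _a_at in the name, Aldoc, Ccne1 and Dut were no longer called. Dusp1 lost its call without replicate 1 of FGF2, Gjc1 without that array or without replicate 2 of vehicle, and Fgf9 without either of the same arrays, with a change of -1.09 without replicate 1 of FGF2. Lyz2 had -0.41 without replicate 2 of vehicle.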

How the data were processed

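Expression was measured in 8 mouse samples, 1 array each. The authors deposited 1 table of intensities on a linear scale, 1 value per probe set and array, scaled so that the 2%-trimmed mean of each array is 150.001, as its values show. The algorithm that summarised probes is not named in any label or header used here. The samples were grouped by their descriptions.

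A pseudocount of 1.77, the 10th percentile of all values, was added before log2 and quantile normalization. Probe sets with 1 gene symbol in GEO's platform annotation (34958 of 45101, against 932 with several and 9211 with none) were named through RefSeq GRCm38.p6, and each gene was taken by its probe set of highest mean. Genes whose mean was at or above the 40th percentile, 13174 of 18194, were tested with limma 3.58.1 in R 4.3.3 (lmFit, eBayes with trend) in a fit of all 8 arrays, contrast FGF2 minus vehicle, 4 residual degrees of freedom, with Benjamini-Hochberg adjustment. The number of arrays limits the precision. Data were simulated with 200 of 13174 genes changed and independent normal noise. There 80% of genes changed 2-fold were recovered, and 8 of 166 calls were of unchanged genes. In the data 4991 genes were called, and the adjusted p depends on that number, so these shares do not carry over to this comparison. Alternatives changed the normalization, pseudocount, filter, variance prior, samples, probe sets, threshold and replicates.

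The 62 gene lists (53 pathways, 9 cell types; 1303 genes, 1096 tested) and the rules were chosen with earlier results of these data known. Named genes were the 15 highest and 15 lowest called genes with a mean intensity of at least 50 in the higher group and no overlap, up to 5 members per list by smallest p, and every tested member of the FGF, ERK inhibitor, ETS, AP-1, IL-6, EGF and connexin lists. Probe sets ending in _s_at or _x_at can bind several transcripts. Promoters are RefSeq sequences of 300 bases. Figures were drawn with matplotlib 3.10.9.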

Additional observations from a re-analysis of the deposited data

How the results depend on the processing

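The count of called genes, 4991, kept within 1.5 times of itself under every alternative fit, from 3490 with probe sets averaged within a gene to 5498 with centring on the median of all probe sets, and the list genes called numbered 524 to 667 against 651. Leaving out an array gave 3844 to 4048 called genes and 559 to 585 list genes. The rule that also asks for a 2-fold change left 1002 genes, by its construction, and an adjusted p under 0.01 left 3513. Weights for each array, chosen after seeing the data, gave 5093, and asking that the groups do not overlap, also chosen then, gave 4960. Centring on all probe sets turned the split to 4016 higher and 1482 lower, and without normalization it was 2445 and 2553. The labels do not say whether same-numbered arrays were paired, and these values cannot decide it. The deviations of same-numbered vehicle and FGF2 arrays correlated at -0.01. With the replicate number as a block 4969 genes and 652 list genes were called.

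Of 391 named genes 320 were called, 80 of these lost their call under some alternative and 25 when an array was left out. The direction reversed for few. With centring on all probe sets Cox4i1 had 0.073, Ndufa1 0.094 and Ptch1 0.023. With a gene's probe sets averaged, Ebna1bp2 had -0.0075, Gas6 0.20, Rb1 0.21 and Idi1, whose probe sets were called in both directions, -0.032. With only probe sets that have no _s_at, _x_at or _a_at in the name Lrig1 had -0.52, Nr4a2 1.13 and Sdc4 -0.044. The cause of these reversals was not tested. Low signals limit the calls of 2 arrays a group: 11.2% of the genes in the lowest of 5 bins of level were called.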
